A study of Homo sapiens with 6 samples.

Results

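The short arm of chromosome 6 (6p) holds 357 genes with enough reads to be tested in these data, and 57 protein-coding genes spread along it, from EXOC2 near the end of the arm to PRIM2 beside the centromere, are described here. They were found by gene symbol in the deposited gene table, which lists 16116 genes, and all 57 were present and tested among 12702 genes. The list was drawn up after it was known that most 6p genes were higher in KO than in WT cells of these same libraries. Higher values in KO are therefore what the list was chosen on, so they are given as measurements that support nothing by themselves, and the question is how each gene's KO over WT ratio stands against 1.5.

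The KO group has 3 RNA-seq libraries of HK-2 cells, an immortalised human proximal tubule epithelial line, labelled FAM134B-KO. FAM134B is the older name of RETREG1, a receptor that delivers endoplasmic reticulum (ER) membrane to autophagosomes. The WT group has 3 libraries of HK-2 cells labelled WT, titled CON. The series design text names TAX1BP1 as the disrupted gene in place of FAM134B. It speaks of biological repeats without saying what was repeated, and the sources used here leave unstated whether the KO cells are 1 clone. P-values therefore measure the spread between these libraries, and what differs between the 2 lines for reasons other than RETREG1 cannot be told apart from the knockout.

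Libraries held 16796963 to 17127465 estimated reads, with 14635 to 14859 genes above 0. RETREG1 had 33, 27 and 28 reads in KO libraries, against 72, 80 and 73 in WT libraries (log2 ratio -1.33, SE 0.18, adjusted p = 5.3e-07 by edgeR), so its mRNA was lower but present. TAX1BP1 had a KO over WT ratio of 0.968 (edgeR adjusted p = 0.533). Of 12 renal epithelial markers, 6 stood above 1 CPM (reads scaled to a common library total) in every library. By edgeR, PAX8 was higher in KO (ratio 1.23, adjusted p = 7.8e-05), and KRT8 (0.634, 2.8e-11), CDH2 (0.647, 1.8e-10) and KRT18 (0.871, 0.0022) were lower. MME and GGT1 were not called, with ratios of 1.09 and 1.01 (adjusted p = 0.107 and 0.851), and PAX2, ANPEP, AQP1, LRP2, CUBN and SLC34A1 were at or near 0. The part of these markers in the results below was not tested. The summed level of that list was 1416 to 1552 CPM in KO and 1567 to 1663 CPM in WT libraries. Of 4 leukocyte markers PTPRC had at most 1 read in a library, and of 3 endothelial markers only PECAM1 was listed, at less than 1 CPM. Summed leukocyte markers stood at 23.5 to 24.6 CPM in KO and 20.8 to 25.4 CPM in WT libraries, nearly all of it CD68. Of 4 fibroblast markers COL1A1 and PDGFRB were listed, with a sum of 16.7 to 19.2 CPM in KO and 20.7 to 27.03 CPM in WT libraries. Within each group the libraries differed in how levels followed GC content. Over 9139 genes of chromosomes other than 4 and 6, the rank correlation of a library's level relative to its group mean with transcript GC was -0.75, 0.18 and 0.70 in KO libraries and -0.61, 0.20 and 0.47 in WT libraries.

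Genes on one chromosome arm share no single pathway; what they share is their physical position, so that a gain or loss of the arm changes their dose together. With all else equal, a gene present in 3 copies instead of 2 yields a ratio of 1.5, and genes under feedback control or with other inputs can fall short of it or go beyond it. The arm also carries the major histocompatibility complex, a gene-dense, GC-rich and highly polymorphic stretch. DNA copy number was not measured in these data.

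All 57 genes had a ratio above 1, which 49.9% of the 12702 tested genes did. The ratios ran from 1.03 for SRSF3 to 2.08 for IER3, with a median of 1.38 and quartiles of 1.21 and 1.51. In the single KO libraries, the median level relative to the WT mean was 1.40, 1.37 and 1.37. In single WT libraries it was 1.00, 0.999 and 0.998. All 3 KO libraries lay above all 3 WT libraries for 54 of the 57, against 23.2% of all tested genes, and the exceptions were SRSF3, PPP1R10 and RREB1. By edgeR's quasi-likelihood test at an adjusted p under 0.05, 54 were called, beside 36.8% of all tested genes; all 54 were called higher, beside 18.7%, and 0 lower, beside 18.1%. Nothing is read from these counts, because the list was chosen on this contrast. In bulk RNA, fewer expressing cells and less RNA per cell cannot be told apart. The genes took 1.23%, 1.22% and 1.21% of estimated reads in KO libraries and 0.899%, 0.893% and 0.891% in WT libraries.

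Each ratio carries a 95% interval from the edgeR fit, and its place against 1.5 is used below. The interval held 1.5 for 18 genes, lay above it for 9 and lay below it for 30. Over all tested genes the interval held 1.5 for 8.77%, lay above it for 2.65% and lay below it for 88.6%. The ratio itself was above 1.5 for 16 of the 57 genes, beside 5.15% of all tested genes. By the libraries themselves, all 9 ratios of 1 KO library over 1 WT library were above 1.5 for 10 of the 57 genes and below 1.5 for 31, beside 2.76% and 87.6% of all tested genes. The ratios differed among the genes by more than their errors, with an SD of 0.23 on the log2 scale against a median standard error of 0.056. Genes close to the boundary were RANBP9, with a ratio of 1.377 and an upper bound of 1.499, and CDC5L, with a ratio of 1.390 and an upper bound of 1.5003.

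**Figure D1:**
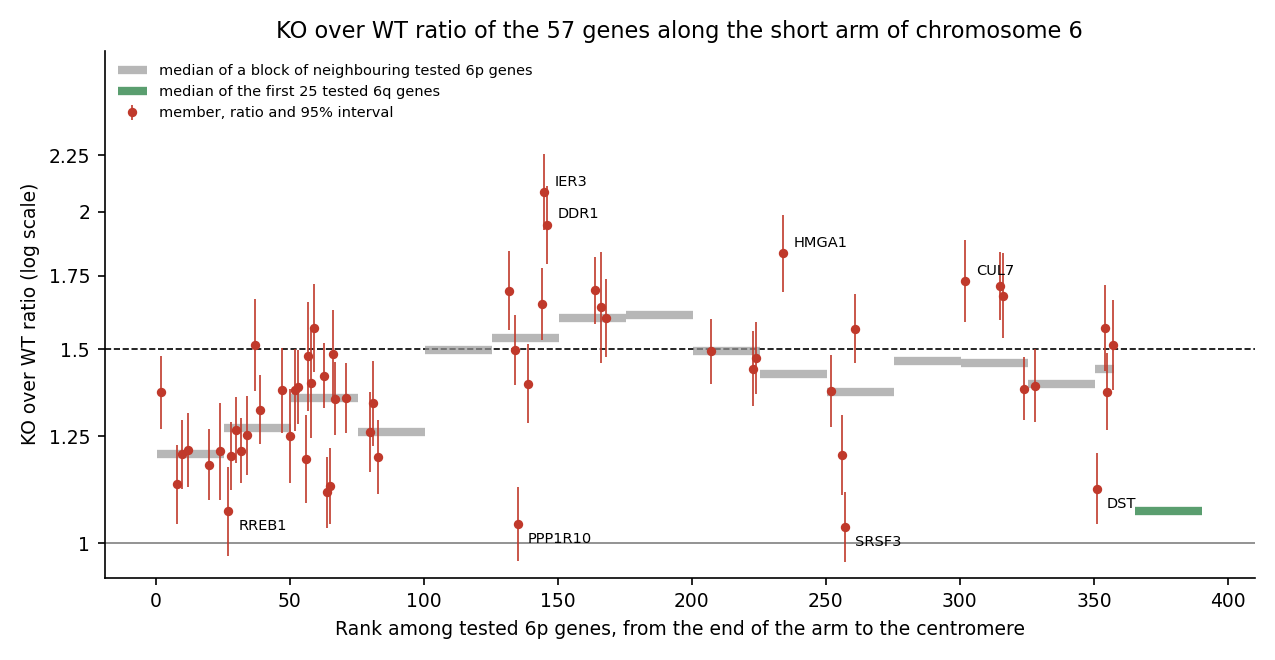
KO over WT ratio (log axis) of the 57 genes with 95% intervals, by rank among the 357 tested 6p genes from the end of the arm to the centromere. Grey bars are medians of blocks of neighbouring tested 6p genes, the green bar is the median of the first 25 tested genes of the long arm, and the dashed line marks 1.5. IER3 stood highest at 2.08 and SRSF3 lowest at 1.03.

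The 6 genes farthest above 1.5 lay between IER3 and XPO5 along the arm. IER3, an immediate early gene that restrains cell death, had 136, 139 and 137 CPM in KO libraries, against 61.4, 69.4 and 66.8 CPM in WT libraries. Its ratio was 2.08 (95% interval 1.93 to 2.26), and every KO library stood far above every WT library. The IER3 count sums 5 listed copies of its transcript, described below. Their ratios were unlike, 3.02 for copies 2, 3, 4 and 6 and 1.28, below 1.5, for copy 5. DDR1 encodes a collagen-activated receptor tyrosine kinase. It had 372, 410 and 424 CPM in KO libraries, against 191, 208 and 221 CPM in WT libraries, a ratio of 1.95 (1.79 to 2.11). HMGA1, an architectural chromatin protein that bends AT-rich DNA, had 758, 854 and 865 CPM in KO libraries, against 414, 479 and 458 CPM in WT libraries. Its ratio was 1.83 (1.69 to 1.99), and KO replicate 1 and WT replicate 1 were the lowest of their groups, as they were for DDR1, CUL7 and BAG6. HMGA1 has processed pseudogenes with which reads can be shared.

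CUL7, the scaffold of a cullin ubiquitin ligase, had 97.1, 102 and 112 CPM in KO libraries, against 57.6, 59.0 and 63.0 CPM in WT libraries, a ratio of 1.73 (1.59 to 1.89). XPO5, which exports precursor miRNAs from the nucleus, had 210, 219 and 213 CPM in KO libraries and 127, 121 and 127 CPM in WT libraries. Its 9 library ratios ran from 1.65 to 1.80. BAG6, a chaperone for proteins that fail to insert into membranes, had 397, 414 and 432 CPM in KO libraries, against 240, 244 and 249 CPM in WT libraries, a ratio of 1.70 (1.58 to 1.82). These 6 genes were picked for their high ratios. In all 6 every KO library lay above every WT library, as in 23.2% of all tested genes. All 9 library ratios exceeded 1.5 in each, as in 2.76% of all tested genes.

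At the other end, 3 genes had KO levels that overlapped WT levels. SRSF3, a serine and arginine rich splicing factor that limits its own mRNA through a poison exon, had 449, 421 and 414 CPM in KO libraries and 433, 385 and 423 CPM in WT libraries. Its ratio was 1.03 (0.961 to 1.11). PPP1R10 encodes PNUTS, a nuclear subunit that directs protein phosphatase 1 in transcription termination. It had 98.2, 106 and 104 CPM in KO libraries, against 95.2, 101 and 101 CPM in WT libraries, a ratio of 1.04 (0.964 to 1.12). RREB1, a zinc finger transcription factor downstream of RAS, had 58.9, 52.8 and 62.5 CPM in KO libraries and 53.8, 56.5 and 52.7 CPM in WT libraries. Its ratio was 1.07 (0.974 to 1.17), and its lowest KO library was level with its lowest WT library. These 3 intervals hold 1 and exclude 1.5.

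KIF13A, a kinesin of endosome transport, had 111, 111 and 108 CPM in KO libraries, against 102, 99.1 and 95.5 CPM in WT libraries, a ratio of 1.11 (1.03 to 1.20). DST, which encodes the cytoskeletal linker dystonin, had 290, 283 and 270 CPM in KO libraries, against 269, 239 and 245 CPM in WT libraries, a ratio of 1.12 (1.04 to 1.21). TPMT, the thiopurine methyltransferase, had 85.3, 79.8 and 78.5 CPM in KO libraries and 73.1, 70.5 and 72.2 CPM in WT libraries. Its ratio was 1.13 (1.04 to 1.22). In these 3 genes the KO libraries stood above the WT libraries by a small margin.

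Nearest to 1.5 were ABCF1, BRD2, PRIM2 and GCNT2. ABCF1, an ATP-binding protein that acts in translation initiation, had 177, 184 and 192 CPM in KO libraries, against 123, 121 and 126 CPM in WT libraries, a ratio of 1.496 (1.39 to 1.61). BRD2, a bromodomain reader of acetylated histones, had 359, 361 and 370 CPM in KO libraries and 240, 240 and 250 CPM in WT libraries, a ratio of 1.49 (1.40 to 1.60). PRIM2, the large subunit of DNA primase, had 42.4, 41.8 and 41.7 CPM in KO libraries, against 27.6, 26.9 and 28.8 CPM in WT libraries, a ratio of 1.51 (1.38 to 1.66). The annotation also holds a PRIM2 pseudogene, so the split of its reads is uncertain. GCNT2, the enzyme of I blood group branching, had 56.4, 51.1 and 48.8 CPM in KO libraries and 35.6, 34.6 and 33.1 CPM in WT libraries. Its ratio was 1.51 (1.37 to 1.67). In all 4 genes, picked for being near 1.5, every KO library lay above every WT library, as in 23.2% of all tested genes.

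**Figure D2:**
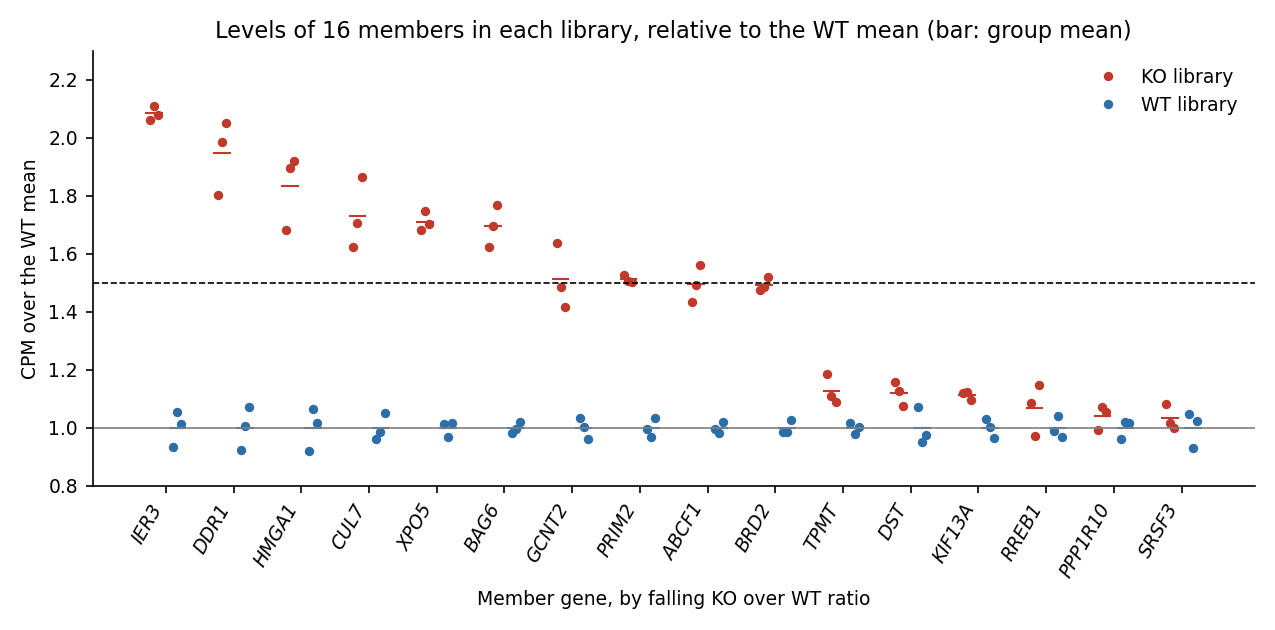
Level of 16 genes in each KO (red) and WT (blue) library, as CPM over the gene's WT mean, with bars for group means, a dashed line at 1.5 and a grey line at 1. KO libraries of IER3 stood near 2.08, those of ABCF1, BRD2, PRIM2 and GCNT2 lay around 1.5, and those of SRSF3, PPP1R10 and RREB1 overlapped the WT libraries.

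Promoters are shown for DDR1, with the second highest ratio, for SRSF3 and PPP1R10, with the lowest, and for ABCF1, nearest to 1.5, so that their sequence can be set beside the ratios. Each is the 250 bases before the gene's start in RefSeq on GRCh38.p14, written 5′ to 3′ on the gene's strand. Capitals mark the TATA box letters TATAAA, then the NF-Y letters CCAAT, the Sp1 letters GGGCGG and the cAMP response letters TGACGTCA, each on either strand. DDR1 is on the plus strand at chr6:30880720-30880969, SRSF3 on the plus strand at chr6:36594112-36594361, PPP1R10 on the minus strand at chr6:30617244-30617493 and ABCF1 on the plus strand at chr6:30571192-30571441.
DDR1: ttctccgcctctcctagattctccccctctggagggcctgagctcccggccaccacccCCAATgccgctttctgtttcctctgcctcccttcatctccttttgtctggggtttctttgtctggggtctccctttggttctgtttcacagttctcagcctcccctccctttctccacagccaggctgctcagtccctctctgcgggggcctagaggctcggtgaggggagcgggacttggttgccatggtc
SRSF3: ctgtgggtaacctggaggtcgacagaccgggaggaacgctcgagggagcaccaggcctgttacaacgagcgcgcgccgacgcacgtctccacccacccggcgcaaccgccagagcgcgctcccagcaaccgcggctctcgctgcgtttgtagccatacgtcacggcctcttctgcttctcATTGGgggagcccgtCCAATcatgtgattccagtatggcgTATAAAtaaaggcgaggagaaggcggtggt
PPP1R10: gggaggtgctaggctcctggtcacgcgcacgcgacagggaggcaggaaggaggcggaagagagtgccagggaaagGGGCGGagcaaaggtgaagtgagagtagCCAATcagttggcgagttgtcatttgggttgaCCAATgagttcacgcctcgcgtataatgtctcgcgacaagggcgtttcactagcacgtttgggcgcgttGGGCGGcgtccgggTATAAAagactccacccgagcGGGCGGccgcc
ABCF1: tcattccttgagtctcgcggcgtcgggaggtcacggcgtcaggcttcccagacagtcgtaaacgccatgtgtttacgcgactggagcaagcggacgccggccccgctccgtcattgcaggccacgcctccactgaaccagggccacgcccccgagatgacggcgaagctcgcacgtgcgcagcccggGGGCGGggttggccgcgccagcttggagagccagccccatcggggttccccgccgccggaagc

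Both genes with ratios nearest 1, SRSF3 and PPP1R10, carry TATAAA and a pair of CCAAT letters in this window. ABCF1 carries neither of these, and DDR1 carries 1 CCAAT alone. The Sp1 letters stand 3 times in PPP1R10 and 1 time in ABCF1, and are absent from SRSF3 and DDR1. The table had an entry for 52 of the 57 genes, all but HIVEP1, IER3, DAXX, STK38 and CUL7, and the first listed start of each gene was used. TATAAA stood in 6 of them (11.5%), against 5.07% of promoters of tested genes and 11.1% of those of all 27305 genes in the table, 1 promoter each. The 6 genes and their ratios were SRSF3 with 1.03, PPP1R10 with 1.04, PRPF4B with 1.18, JARID2 with 1.19, RIPK1 with 1.21 and C6orf47 with 1.64. CCAAT stood in 32.7% of the 52, against 35.1% of promoters of tested genes and 33.0% of all in the table. GGGCGG stood in 84.6%, against 68.0% of promoters of tested genes and 42.3% of all in the table. TGACGTCA stood in 0 of the 52, against 2.75% of promoters of tested genes and 1.77% of all in the table. The median GC content of the window was 66.8% for the 52 and 65.2% for promoters of tested genes.

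The 57 genes were grouped by role, and in every group but mitochondria and metabolism, intervals were found on both sides of 1.5. In RNA processing and translation, 1 of 8 genes lay above 1.5, 3 held it and 4 lay below, with a median ratio of 1.32. GNL1, a putative GTP-binding protein, averaged 133 ± 6.34 CPM in KO and 78.6 ± 5.19 CPM in WT (SD, n = 3 each), a ratio of 1.70. DHX16, a splicing helicase, and CDC5L, a core subunit of the spliceosome's PRP19 complex, held 1.5 with ratios of 1.40 and 1.39. PRPF4B, a kinase of splicing factors, averaged 221 ± 11.6 CPM in KO and 187 ± 7.47 CPM in WT, a ratio of 1.18. EEF1E1, a scaffold of the aminoacyl-tRNA synthetase complex, had a ratio of 1.25.

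Among 11 genes of chromatin and transcription, 1 lay above 1.5, 6 held it and 4 lay below, with a median of 1.44. ATXN1, a transcriptional corepressor known from spinocerebellar ataxia, averaged 49.1 ± 1.79 CPM in KO and 31.3 ± 0.640 CPM in WT, a ratio of 1.57. ZNF451, a SUMO ligase, had the same rounded ratio of 1.57. KDM1B, a histone demethylase, the histone chaperone gene DAXX and the zinc finger gene HIVEP1 also held 1.5, with ratios of 1.48, 1.44 and 1.38. DEK, an abundant chromatin protein, averaged 817 ± 64.6 CPM in KO and 604 ± 20.7 CPM in WT, a ratio of 1.35 (1.25 to 1.46). E2F3, a cell cycle transcription factor, had a ratio of 1.35 and JARID2, a subunit of Polycomb repressive complex 2, one of 1.19.

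Of 5 genes of replication, repair and division, 1 lay above 1.5, 2 held it and 2 lay below, with a median of 1.47. POLH, the translesion polymerase that copies past ultraviolet damage, averaged 65.7 ± 3.68 CPM in KO and 39.2 ± 0.749 CPM in WT, a ratio of 1.68 (1.54 to 1.83). KIFC1, a minus-end kinesin that clusters centrosomes, had a ratio of 1.47. GMNN, the licensing inhibitor geminin, averaged 96.7 ± 3.19 CPM in KO and 80.7 ± 2.14 CPM in WT, a ratio of 1.20 (1.11 to 1.29). TDP2, which removes trapped topoisomerase II from DNA ends, had a ratio of 1.26.

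None of the 8 genes of mitochondria and metabolism lay above 1.5, 2 held it and 6 lay below, with a median of 1.33. MTCH1, an outer membrane insertase, averaged 260 ± 10.6 CPM in KO and 166 ± 5.43 CPM in WT, a ratio of 1.57. MCUR1, a regulator of mitochondrial calcium uptake, had a ratio of 1.39. ACOT13, an acyl-CoA thioesterase, and TMEM14C, needed for porphyrin import in heme synthesis, had ratios of 1.34 and 1.32. SIRT5, a lysine desuccinylase, had one of 1.25, and LYRM4, of iron-sulfur cluster assembly, one of 1.21.

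In transport, ER and membrane traffic, 2 of 9 genes lay above 1.5, 2 held it and 5 lay below, with a median of 1.38. FLOT1, a lipid raft protein, averaged 143 ± 2.70 CPM in KO and 86.8 ± 3.38 CPM in WT, a ratio of 1.65 (1.53 to 1.78). DTNBP1, a subunit of the lysosome-related organelle complex BLOC-1, and NUP153, of the nuclear pore basket, held 1.5 with ratios of 1.48 and 1.42. EXOC2, of the exocyst, had a ratio of 1.37 and RANBP9, a Ran-binding scaffold protein, one of 1.38. KIF13A, given above, had the lowest ratio of these 9 at 1.11. TXNDC5, a protein disulfide isomerase, averaged 605 ± 16.1 CPM in KO and 498 ± 18.4 CPM in WT, a ratio of 1.21 (1.13 to 1.30), and SSR1, of the translocon-associated complex, had a ratio of 1.20.

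Of 5 chaperone and ubiquitin genes, 2 lay above 1.5, 1 held it and 2 lay below, with a median of 1.40. HSP90AB1, the constitutive cytosolic HSP90 and the most abundant of the 57 per length, averaged 2574 ± 3.43 CPM in KO and 1863 ± 80.9 CPM in WT, a ratio of 1.38 (1.29 to 1.48). In the deposited TPM, which accounts for length, it stood at 2062 in KO and 1524 in WT, while the lowest of the 57, ATXN1, stood at 8.57 in KO and 5.60 in WT. BAG2, a cochaperone of HSP70, had a ratio of 1.37, and MYLIP, the ligase that degrades the LDL receptor, one of 1.40. HSP90AB1 has pseudogenes with which its reads can be shared.

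The 3 adhesion and cytoskeleton genes lay on both sides, DDR1 above 1.5 and DSP and DST below. DSP, the desmosomal linker desmoplakin, averaged 466 ± 11.4 CPM in KO and 368 ± 14.8 CPM in WT, a ratio of 1.27 (1.18 to 1.36). Among 7 genes of protease inhibition, cell death and kinase signalling, IER3 lay above 1.5, CSNK2B held it and 5 lay below, with a median of 1.21. CSNK2B, the regulatory subunit of casein kinase 2, averaged 140 ± 9.25 CPM in KO and 87.2 ± 4.33 CPM in WT, a ratio of 1.60. MAPK14, the stress kinase p38 alpha, averaged 98.8 ± 1.02 CPM in KO and 71.9 ± 0.282 CPM in WT, a ratio of 1.37 with 9 library ratios between 1.36 and 1.39. RIPK1, a kinase of necroptosis and TNF signalling, had a ratio of 1.21, the kinase gene STK38 and the serpin gene SERPINB6 each one of 1.20, and SERPINB1, an inhibitor of neutrophil proteases, one of 1.13. C6orf47, placed in no group, had a ratio of 1.64.

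The ratios were not even along the arm. The 30 genes from EXOC2 to GMNN, on the side of the arm's end, had a median of 1.26, and 0 of their intervals lay above 1.5, 7 held it and 23 lay below. The 27 genes from GNL1 to PRIM2 had a median of 1.51, with 9 above, 11 holding and 7 below. The boundary was placed after the values were seen, at the gap between listed genes that spans the histone gene cluster. In single KO libraries the first group stood at 1.30, 1.28 and 1.27 and the second at 1.48, 1.51 and 1.52, so the order held in each. The 300 other tested 6p genes differed in the same direction across this boundary, with medians of 1.32 over 101 genes before it and 1.48 over 199 genes after it. Of the 101, 11 had an interval above 1.5, 45 held it and 45 lay below. Among the 199, 44 lay above, 100 held it and 55 lay below. The lack of intervals above 1.5 before the boundary was thus limited to the listed genes.

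In blocks of 25 neighbouring tested 6p genes, the block from DUSP22 to PPP1R3G at the end of the arm had a median ratio of 1.20. The next 3 blocks stood at 1.27, 1.36 and 1.26. The highest medians, 1.60 and 1.61, were in the blocks from CCHCR1 to VWA7 and from VARS1 to GPSM3, in the major histocompatibility complex. From TAP2 to the centromere the medians lay between 1.37 and 1.49. The 7 genes from DST to PRIM2 had a median of 1.44, and the first 25 tested genes of the long arm, MTRNR2L9 to IRAK1BP1, had one of 1.07. All 288 tested genes of the long arm had a median of 1.01.

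Beside other gene sets, the 57 genes had a slightly lower median, 1.38, than the rest of their arm. The order differed by position. Before GNL1, the 30 listed genes had a median of 1.26, against 1.32 for 101 other 6p genes. From GNL1 on, the 27 listed genes stood higher, with a median of 1.51 against 1.48 for 199 other 6p genes. Of the 57 genes 30 lay before GNL1, against 101 of the 300 others. The 300 other tested 6p genes had a median of 1.46 with quartiles of 1.23 and 1.61. In all, 449 other 6p genes were listed. At the level of the lowest of the 57 or above, 17.99 CPM, the median was 1.47 over 176 other 6p genes, 1.46 over 95 genes of the short arm of chromosome 4 and 0.998 over 197 genes of the long arm of chromosome 6. The spread of log2 ratios at that level was 0.30 (SD) for other 6p genes and 0.21 for long-arm genes, against 0.23 for the 57. It was 0.185 for genes of the short arm of chromosome 4 and 0.255 for 7450 genes of chromosomes other than 4 and 6. Differences between these sets were not tested.

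**Figure D3:**
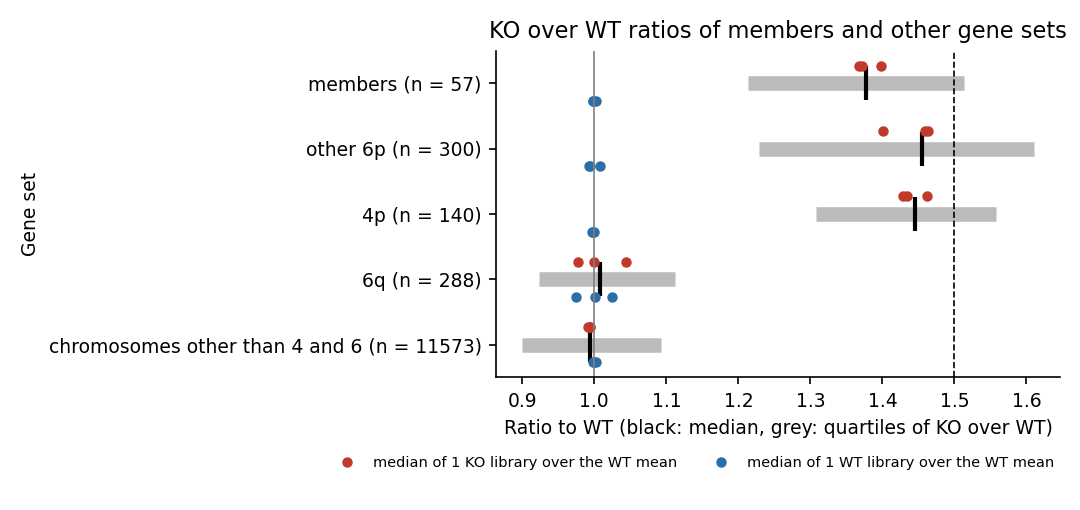
Median (black tick) and quartiles (grey bar) of the KO over WT ratio in 5 gene sets, with the median of each KO library (red) and WT library (blue) over the WT mean. The dashed line marks 1.5. The 57 genes had a median of 1.38, other 6p genes 1.46, genes of the short arm of chromosome 4 1.45 and long-arm genes of chromosome 6 1.01.

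Other genes of the arm spanned a wider range. Among 229 of them at 5 CPM or more in both groups, a level all 57 reached, 4 had a ratio above that of IER3 and 16 one below that of SRSF3. The highest of the 229 was CDKN1A with 3.28 and the lowest TNFRSF21 with 0.456. Among the 251 at 5 CPM or more in the higher group, where a gene can enter through the group in which it is high, the highest ratio was 3.91, in TINAG, a tubular basement membrane antigen, with 6.46 ± 0.139 CPM in KO and 1.65 ± 0.206 CPM in WT. LTB, which encodes lymphotoxin beta, had the next ratio, also 3.91 when rounded, with 17.4 ± 1.61 CPM in KO and 4.43 ± 0.470 CPM in WT. FAM83B, a RAS pathway scaffold, and NEDD9, a focal adhesion scaffold, followed with 3.63 and 3.51. CDKN1A, which encodes the cell cycle inhibitor p21, came next. The lowest ratio was 0.206, in MDGA1, a neural cell surface protein, with 2.48 ± 0.0880 CPM in KO and 12.1 ± 1.29 CPM in WT. TNFRSF21, the death receptor DR6, followed, and KCNK5, a potassium channel of the proximal tubule, had a ratio of 0.655. H2BC12, a replication-type histone, and SLC17A3, a urate transporter, stood at 0.774 and 0.793.

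The transcript table lists some RefSeq accessions in several numbered copies, many of them in the histocompatibility region. The human reference carries alternative versions of this region as separate sequences, and the table does not say on which sequence a copy lies. Entries with a copy number came to 3744, of which 1660 belonged to 6p genes. Of the 57 genes, 14 had an accession listed in more than 1 copy, among them GCNT2 and TMEM14C, which lie outside that region. The gene count sums the copies, and how reads are divided between near-identical copies is an estimate of the counter. Copies were compared within 1 accession, after their values were seen, and the numbers are descriptions.

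In 12 genes, 16 accessions had more than 1 copy at 5 CPM or more. In 6 of these accessions, of ABCF1, FLOT1, GCNT2, KIFC1, PPP1R10 and TMEM14C, all copies had the same values. Each ABCF1 copy averaged 26.3 ± 1.142 CPM in KO and 17.6 ± 0.341 CPM in WT, and the ratio of means was 1.02 for the PPP1R10 copies, 1.28 for those of KIFC1 and 1.77 for those of FLOT1. The other 10 had more than 1 set of values, and in 3 of them, of IER3, CSNK2B and BRD2, the library ratios of the highest and lowest copies did not overlap. The DAXX accessions could not be compared in this way, since a copy had 0 CPM in a WT library. In 1 of them, copy 4 had 10.5, 12.5 and 8.68 CPM in KO libraries, against 0, 2.25 and 0 CPM in WT libraries. Copy 5 of that accession had the lowest ratio of means, 1.07, with library ratios of 0.396 to 2.23.

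IER3 has 1 accession in the table, in 5 copies. Copies 2, 3, 4 and 6 each had 22.9, 23.5 and 22.8 CPM in KO libraries, against 7.39, 7.996 and 7.56 CPM in WT libraries, a ratio of means of 3.02. Copy 5 had 44.1, 45.1 and 45.8 CPM in KO libraries, against 31.9, 37.4 and 36.5 CPM in WT libraries, a ratio of 1.28. The 9 library ratios of copy 5 (1.18 to 1.44) lay below those of the other copies (2.85 to 3.18), and its share of the gene's reads was 32.8% in KO and 53.6% in WT.

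In CSNK2B, copies 6 and 7 each averaged 44.6 ± 2.11 CPM in KO and 22.6 ± 2.13 CPM in WT, a ratio of 1.97 with library ratios of 1.702 to 2.24. Copy 5 averaged 50.1 ± 6.005 CPM in KO and 41.8 ± 4.12 CPM in WT, a ratio of 1.20 (0.962 to 1.49). In BRD2, the accession NM_001199456 had 3 copies at this level. Copy 4 averaged 55.7 ± 7.96 CPM in KO and 29.6 ± 2.92 CPM in WT, a ratio of 1.88 (1.42 to 2.24). Copy 6 averaged 65.6 ± 5.78 CPM in KO and 48.3 ± 1.42 CPM in WT, a ratio of 1.36 (1.25 to 1.55), which overlapped that of copy 4. Copy 1, at a low level, averaged 4.79 ± 1.32 CPM in KO and 6.60 ± 1.51 CPM in WT, a ratio of 0.725 (0.487 to 1.25). The 3 other BRD2 accessions with more than 1 copy at this level had overlapping library ratios.

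**Figure D4:**
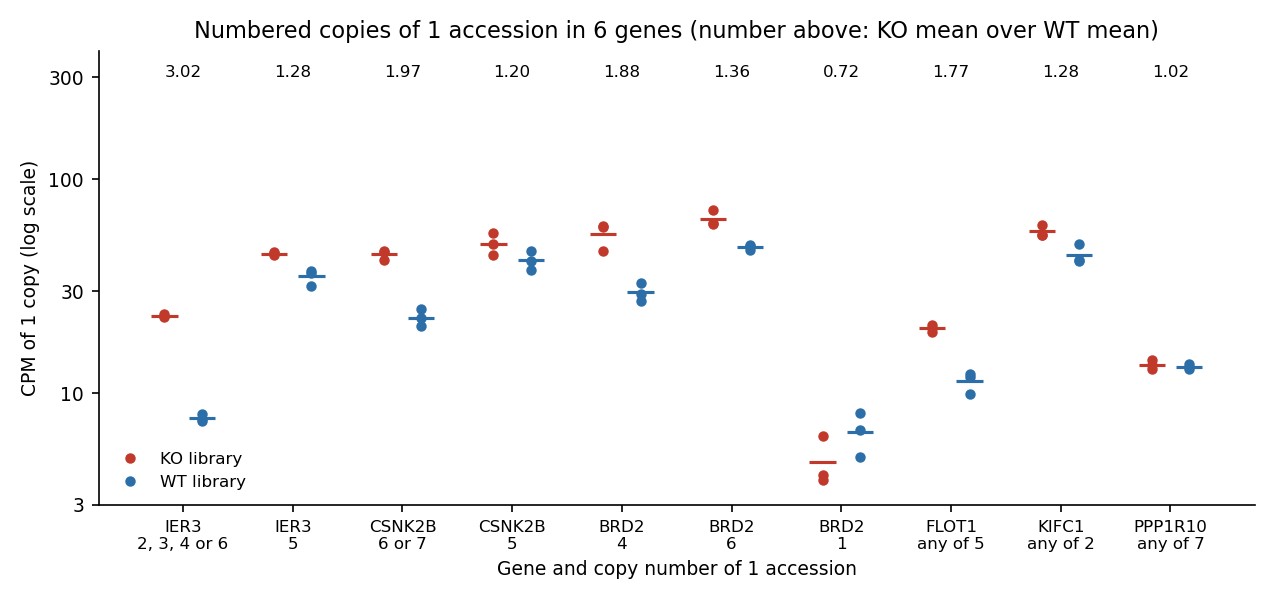
CPM (log axis) of 1 copy of 1 accession of IER3, CSNK2B, BRD2, FLOT1, KIFC1 and PPP1R10 in KO (red) and WT (blue) libraries, with bars for group means and the ratio of means above. Copies given together had the same values. IER3 copies 2, 3, 4 and 6 had a ratio of 3.02 and copy 5 one of 1.28.

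The transcripts of a gene did not always share its ratio. The tested SRSF3 transcript had a ratio of 1.03, that of XPO5 1.70 and that of PRIM2 1.48. The 3 TPMT transcripts at 5 CPM or more ran from 1.09 to 1.12, and the 8 of HMGA1 from 1.35 to 2.00. The 3 of DEK ran from 1.15 to 1.76, the 3 of HIVEP1 from 0.334 to 2.203 and the 2 of RIPK1 from 0.286 to 1.41, beside gene ratios of 1.35, 1.38 and 1.21. The lowest HIVEP1 transcript had 8.96, 0 and 0 CPM in KO libraries and 0, 18.4 and 8.48 CPM in WT libraries. Its interval was 0.0054 to 20.7 and that of the highest was 1.21 to 4.01, so both held the gene ratio. RREB1 reads were divided between models in an uneven way. Its model NM_001003698 had 2.23, 0 and 0 CPM in KO libraries, against 21.6, 21.9 and 11.2 CPM in WT libraries, while NM_001003699 had 36.7, 36.2 and 40.3 CPM in KO libraries and 20.4, 34.8 and 26.6 CPM in WT libraries. In KIF13A, XM_017011188 had a ratio of 1.41 (1.13 to 1.75) and XM_017011192 one of 0.812 (0.642 to 1.03). Of 583 tested transcripts of the 57 genes 493 had a ratio above 1, beside 50.5% of all 44030 tested transcripts, and overlapping models share reads. Many of the 583 were numbered copies of BAG6 and DDR1 models, those of BAG6 with group means under 5 CPM, so these genes weigh heavily in the count.

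Across the 57 genes the ratio went with the GC content of the longest coding transcript (Spearman rho 0.48, n = 57 genes of the same libraries), and hardly with mean level (rho 0.01). Within the 27 genes from GNL1 to PRIM2 rho was 0.62, and within the 30 from EXOC2 to GMNN it was -0.01. Median GC was 52.9% in the 27 and 45.0% in the 30, so GC content and position moved together. Over 298 other 6p genes rho was 0.16. Over 11523 genes of chromosomes other than 4 and 6 rho was 0.01, and for 140 genes of the short arm of chromosome 4 it was -0.18. The running median of log2 ratios against GC on those other chromosomes stayed between -0.045 and 0.026. With that trend taken off, the medians were 1.28 for the 30 genes and 1.52 for the 27. The part of GC content in the ratios was not tested further, and the libraries within a group differed along GC, as given above.

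**Figure D5:**
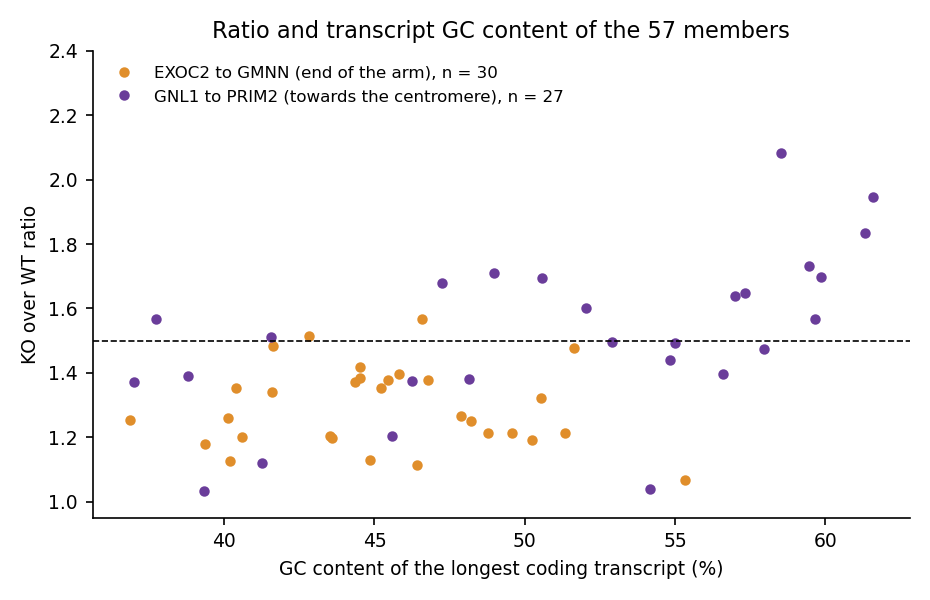
KO over WT ratio of the 57 genes against the GC content (%) of their longest coding transcript, in orange for the 30 genes from EXOC2 to GMNN and in purple for the 27 genes from GNL1 to PRIM2, with a dashed line at 1.5. The 9 genes whose interval lies above 1.5, IER3 at 2.08 among them, are all purple.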

How the data were processed

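RNA-seq was compared between 3 KO and 3 WT libraries of HK-2 cells. The authors deposited estimated counts, TPM and FPKM per gene and per RefSeq transcript for each library, per the file headers. Build GRCh37 is named in the submitters' processing notes, which list Cuffdiff 2.2.1, HISAT2 2.0.1, cutadapt 1.9.1, FastQC 0.10.1 and bcl2fastq 2.17.1.14. The read counter, the library kit and the strand setting were not stated, so reads of overlapping antisense genes cannot be told apart. Between 13.0% and 14.0% of the estimated counts of a library were not whole, and all were rounded.

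The fit used edgeR 4.0.16 in R 4.3.3 on all genes: filterByExpr (minimum count 10, total 15; 12702 genes kept), TMM factors, robust quasi-likelihood, Benjamini-Hochberg adjustment and a threshold of 0.05. CPM values are TMM-scaled. The standard error of a log2 ratio is its absolute value over the square root of F, and the 95% interval uses the t distribution. Transcripts were fitted alike. Numbered copies were compared within 1 accession, in CPM by the gene fit's library sizes. The steps were tested on simulated data. TPM and FPKM entered limma 3.58.1 as log2 of the value plus 1 or 0.1; DESeq2 1.42.0 was a further alternative. Replicate libraries differed beyond sampling noise (chi-square per degree of freedom at least 2.20).

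Genes were placed on arms by their order in the NCBI gene table for GRCh38, up to PRIM2 for 6p and CWH43 for the short arm of chromosome 4. It had entries for 16063 of 16116 genes, which were matched by gene number, PRPF4B among them. GC content came from GENCODE 29 transcripts. Per-library values are given for the 6 highest and 6 lowest genes off 1.5 and the 4 nearest it, and the 5 highest and 5 lowest other 6p genes are named. The genes, the role groups and the tests were chosen with earlier results of these data known. The read depth gives each gene at least 220 estimated reads per library, and intervals cover the spread between these libraries only.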

Additional observations from a re-analysis of the deposited data

How the results depend on the processing

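Under 18 alternatives the median ratio of the 57 genes stayed between 1.34 and 1.39, and 1 of 1026 recomputed ratios of single genes was below 1, that of SRSF3 without WT replicate 2 (0.999). The median of the 57 moved beyond the SD between KO libraries to 1.35 with library size alone, 1.35 in limma on log2(TPM + 0.1), and 1.34 in limma on log2(TPM + 1) and on log2(FPKM + 1); leaving out 1 library each gave 1.36 to 1.39. The median of other 6p genes moved to 1.41 with no filter on low counts. In limma it moved to 1.33 on log2(TPM + 0.1), 1.22 on log2(TPM + 1) and 1.19 on log2(FPKM + 1). The limma fits both added a pseudocount and kept every gene with a value above 0, and the part of each was not tested. Leaving out 1 library each gave 1.44 to 1.47 for other 6p genes. The number of genes whose interval holds 1.5 was 18 as reported, 13 to 21 in the other settings, and 15 to 27 when 1 library was left out, highest without KO replicate 2, where 22 lay below and 8 above. Of the 9 genes above 1.5, 6 stayed above in all alternatives; FLOT1, GNL1 and POLH did not, and 21 of the 30 below stayed below. Same-numbered KO and WT libraries correlated in their deviations at 0.43, 0.03 and 0.37, and differently numbered ones at -0.41 to 0.08. The labels do not state that the numbers pair libraries, so the main fit had no replicate block. Whether libraries of the same number share a source of variation was not tested. With a replicate block, 13 genes held 1.5, 10 lay above and 34 below, with a median of 1.38. Subtracting the GC trend was chosen after seeing the data and gave 1.38. The causes of these shifts were not tested.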
